A study of Mus musculus with 8 samples.

Results

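The Hist1 histone gene cluster of mouse chromosome 13 was examined through the TET1 peaks that fall in 2 windows of the mm9 build. Window 1 runs from 21.78 to 22.14 Mb and window 2 from 23.6 to 23.87 Mb, and both hold runs of replication-dependent histone genes. A peak was a member if it overlapped a window by at least 1 bp, whatever its height or its change. This rule used no measured value beyond the calling of the peak itself, although members and lists were chosen with earlier results of these data known. Of the 446708 peaks in 6 deposited lists, 246 were members. They numbered 39, 39 and 38 in mock libraries 1, 2 and 3, and 44, 43 and 43 in RNaseH1 libraries 1, 2 and 3.

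The study located TET1 on chromatin by ChIP-seq, the sequencing of immunoprecipitated DNA, in mouse embryonic stem cells with an HA tag on the endogenous protein, a genotype that both groups share. The design text calls the line E14TG2a, whereas the labels list C57BL/6N as the strain. After permeabilisation, the cells of the group labelled RNaseH1 were given RNase H1 (0.2 U/ul) together with Nuclease S1 (0.05 U/ul) for 20 min, and the mock group had neither. In both groups crosslinking with disuccinimidyl glutarate (2 mM, 45 min) came before formaldehyde (0.7%, 15 min), and sonicated fragments averaged 250 bp. Each group had 3 libraries made with an HA antibody and 1 input, pooled from 5% of the chromatin of every replicate. RNase H1 cuts the RNA of RNA-DNA hybrids and Nuclease S1 cuts single-stranded nucleic acid. Because no library received 1 enzyme by itself, their separate contributions cannot be told apart, and R-loops were not measured. The labels do not state whether replicates were separate cultures, so every p-value below measures the spread between these samples only, which may be technical.

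TET1 oxidises 5-methylcytosine, the first step towards removing DNA methylation, and in embryonic stem cells it sits mainly at promoters rich in CpG, which its CXXC zinc finger can bind. Replication-dependent histone genes are short, lack introns and are transcribed strongly in S phase. They stand close together, and many H2A and H2B genes are arranged as divergent pairs with a shared promoter interval. R-loops, in which a transcript pairs with its template and displaces the other DNA strand, are common at strongly transcribed genes.

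RefSeq's gene table (GRCm38.p6) lists 56 Hist1 genes on chromosome 13, of which 54 code for proteins: 6 for H1 linker histones, 13 for H2A, 15 for H2B, 9 for H3 and 11 for H4. The gene listed as H4bc24 has the older symbol Hist1h2br and was counted here as H2B. Their order along the chromosome alternates with other genes. A run of 18 histone genes from H2bc13 on is followed by 3 others (Zfp184 to Prss16) and 5 more histone genes (H2ac12 to H2bc11). Then come 41 other genes, 36 of them vomeronasal receptor genes. A run of 20 histone genes (H4c8 to H4c3), the iron regulator Hfe, 9 further histone genes (H1f2 to H1f1), 5 others and the pair H2bc1 and H2ac1 follow. This table is of another build than the peaks, so peaks were not assigned to genes and only names and order were taken from it.

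As examples of histone gene promoter sequence, the 150 bases upstream of the start are printed for the first gene of each histone type in genome order, from RefSeq (GRCm38.p6), 5′ to 3′ on the strand of the gene. Capitals mark CG dinucleotides. H2bc13 and H2ac13 are neighbours that point away from each other, and their printed stretches overlap as complementary strands.
H1f5: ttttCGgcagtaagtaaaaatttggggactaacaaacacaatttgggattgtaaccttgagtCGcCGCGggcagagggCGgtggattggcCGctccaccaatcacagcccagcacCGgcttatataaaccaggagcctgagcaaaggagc
H2ac13: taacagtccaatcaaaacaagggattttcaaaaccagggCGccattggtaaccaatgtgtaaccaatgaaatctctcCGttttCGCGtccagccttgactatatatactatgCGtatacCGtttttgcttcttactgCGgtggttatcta
H2bc13: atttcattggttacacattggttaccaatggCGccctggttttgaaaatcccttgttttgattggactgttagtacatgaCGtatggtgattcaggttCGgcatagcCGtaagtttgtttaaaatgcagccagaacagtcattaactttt
H3c10: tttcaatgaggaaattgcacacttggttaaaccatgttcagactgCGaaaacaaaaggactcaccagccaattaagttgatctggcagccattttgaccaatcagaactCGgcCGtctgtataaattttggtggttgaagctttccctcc
H4c11: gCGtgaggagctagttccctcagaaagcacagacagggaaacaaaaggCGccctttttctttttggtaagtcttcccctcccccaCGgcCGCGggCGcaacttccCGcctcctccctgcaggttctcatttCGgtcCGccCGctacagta
Promoter windows of 300 bases (250 before the start and 50 after it) were available for 51 of the 54 coding genes, in 52 entries. They held a median of 10.5 CG dinucleotides, with a range from 3 to 27, against a median of 7 over all 32851 RefSeq promoters. Their median share of G and C bases was lower than that of all promoters, at 45.2% against 52.7%. H1 promoters had a median of 13.5, H4 promoters 13, H2B promoters 10, H2A promoters 9 and H3 promoters 8. The letters TATAAA, searched on both strands, occurred in 59.6% of the histone promoters and in 13.6% of all promoters. CCAAT occurred in 84.6% against 37.4%: every H1, H2A, H2B and H3 promoter had it, and 3 of 11 H4 promoters did. The octamer ATTTGCAT was found in 5 of 13 H2A and 6 of 15 H2B promoters and in no H1, H3 or H4 promoter, against 1.74% of all promoters. In all, 10 neighbouring pairs were divergent with overlapping promoter windows, and all 10 joined an H2A to an H2B gene, with H4bc24 counted as H2B. These letter matches describe the sequence and are not binding sites.

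The lists held 73602 to 83601 peaks in the mock group and 62161 to 74404 in the RNaseH1 group, with median summits of 16 to 18 fragments in every list. Summit coverage, the number of ChIP fragments over a peak's highest point, was recovered from the authors' fold and p of each peak. It is given below as times background, that is, divided by the genome-wide mean coverage of the same library, which was 2.131 to 2.253 fragments in mock and 1.929 to 2.239 in RNaseH1 libraries. Total fragment numbers are not known. At the member regions found in every list, the summits held 26 to 83 fragments in mock and 13 to 50 in RNaseH1 libraries, which limits the precision of any single value.

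Histone window peaks were lower and narrower after nuclease treatment, and in window 2 slightly more of them were called in every treated library. Window 1 held 18, 19 and 17 peaks in the mock libraries and 20, 21 and 19 in the RNaseH1 libraries. These ranges meet at 19 peaks. In window 2 the counts were 21, 20 and 21 in mock and 24, 22 and 24 in RNaseH1 libraries, so the groups did not overlap. These are not new sites. When overlapping peaks of all lists were joined into regions, as described below, every region of the windows held a mock peak. The higher counts came from regions called as a pair of peaks in treated lists. The mean difference was 2 peaks in window 1 (18 ± 1 against 20 ± 1, SD, n = 3 per group; exact permutation p = 0.2, two-sided). It was 2.67 peaks in window 2 (20.7 ± 0.58 against 23.3 ± 1.15, SD, n = 3; exact permutation p = 0.1). With 3 libraries per group the smallest p is 0.1, so neither these nor the 4 other measures per library below could pass 0.05; adjusted over the 6 measures, the p of 0.1 becomes 0.12 and the p of 0.2 stays 0.2. On the rest of chromosome 13 the mock libraries had 2120, 2080 and 1827 peaks and the RNaseH1 libraries 1777, 1429 and 1874, a difference of −15.7% in the mean with overlapping groups. Per 10000 peaks of a list, the windows held 4.67, 4.74 and 5.16 in mock and 6.23, 6.92 and 5.78 in RNaseH1 libraries, and here the groups did not overlap. Over the whole lists, RNaseH1 library 3 was longer than mock library 3, so those totals overlapped too. Among peaks at or above the pooled median −log10 q of 6.59, the difference in number was −2 in window 1 (exact permutation p = 0.3) and −2.33 in window 2 (exact permutation p = 0.4). The q of a peak depends on its summit coverage, which was itself lower in the treated windows. The part of this in the changed differences was not tested.

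**Figure D1:**
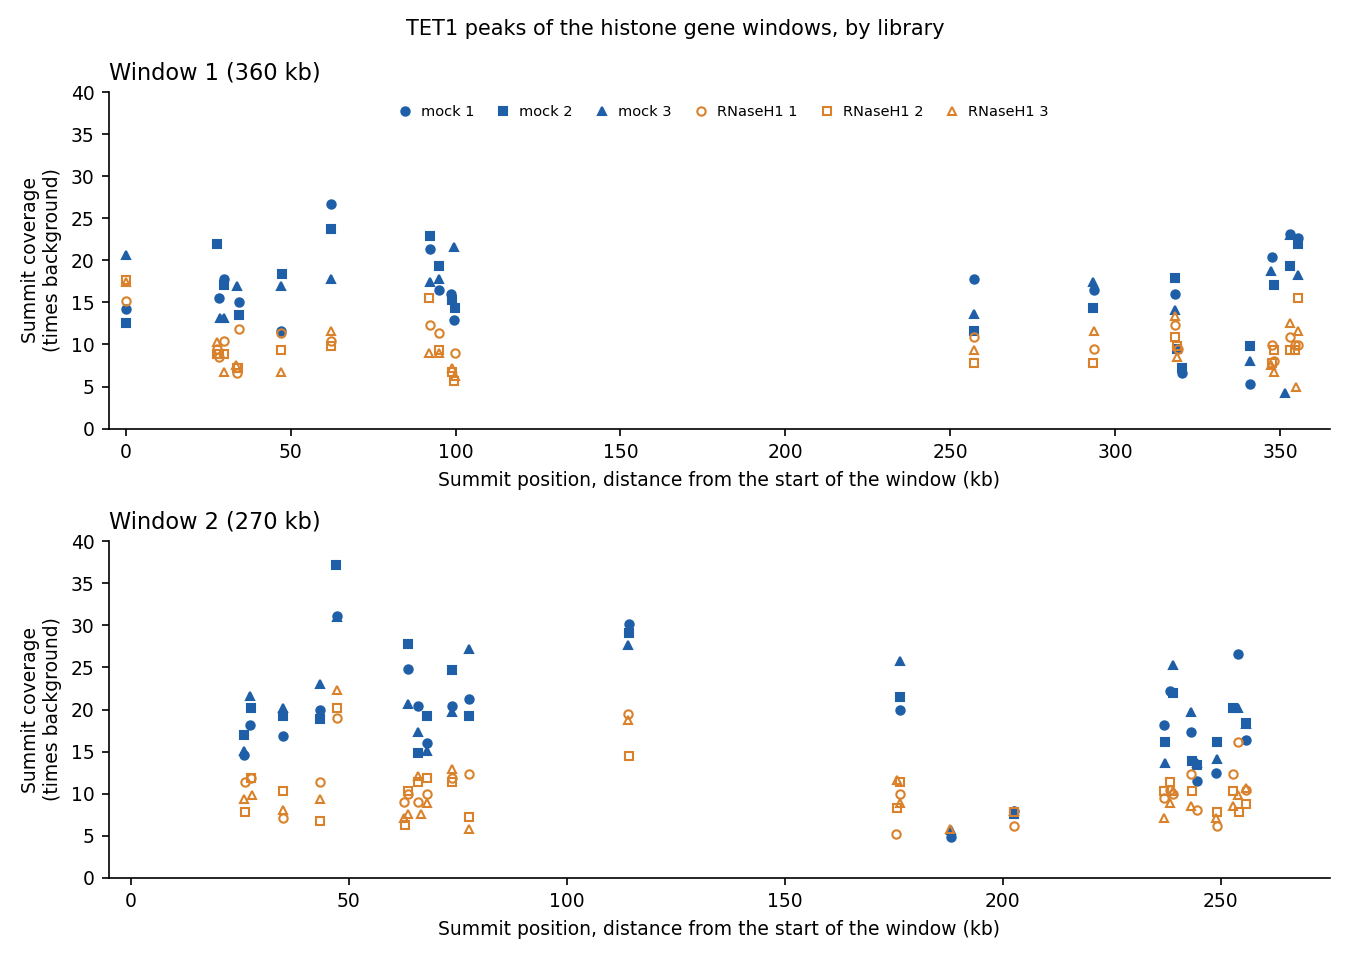
Summit coverage (times the genome-wide background, vertical axis) of every TET1 peak against the distance of its summit from the start of the window in kb, for window 1 (top) and window 2 (bottom). Filled blue symbols are the 3 mock libraries and open orange symbols the 3 RNaseH1 libraries; the same sites recur in all libraries, with the orange symbols mostly below the blue ones.

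Peak width and covered sequence fell outside the mock range in every nuclease-treated library. Peaks covered 31906, 32251 and 32995 bp of the windows in mock and 23262, 21202 and 23157 bp in RNaseH1 libraries (exact permutation p = 0.1, n = 3 per group). The lowest mock library thus covered more than the highest RNaseH1 library, and the means differed by −30.4%, although more peaks were called. As a share of the window, this was 4.08%, 4.09% and 4.14% of window 1 in mock and 3.02%, 2.67% and 3.01% in RNaseH1 libraries. For window 2 the shares were 6.37%, 6.49% and 6.70% against 4.59%, 4.30% and 4.56%. The difference was −29.4% of the mock mean in window 1 and −31.2% in window 2. Median width was 687, 676 and 734.5 bp in mock and 504.5, 465 and 496 bp in RNaseH1 libraries (exact permutation p = 0.1, n = 3). The whole lists also had narrower peaks, with mean medians of 448 bp and 424 bp, a difference of −5.43% against −30.1% in the windows. Peaks of 1000 bp or wider numbered 11, 11 and 12 in the mock windows and 2, 1 and 4 in the RNaseH1 windows. That is 28.2%, 28.2% and 31.6% of the window peaks against 4.55%, 2.33% and 9.30%. Such peaks were also a smaller share of the whole RNaseH1 lists, at 12.9%, 13.8% and 14.4% in mock and 9.48%, 9.57% and 10.4% in RNaseH1 libraries. The widest peak was 1763 to 1794 bp in mock and 1215 to 1256 bp in RNaseH1 libraries, while the narrowest ones overlapped (245 to 311 bp and 254 to 269 bp).

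Summits stood closer together in the nuclease-treated lists. The median distance between neighbouring summits was 5612, 4472 and 5225.5 bp in mock and 3968, 3955 and 3913 bp in RNaseH1 libraries (exact permutation p = 0.1, n = 3). The groups did not overlap, and the RNaseH1 libraries varied far less among themselves (SD 28.7 against 580 bp). Over the whole lists the median spacing overlapped between the groups, at 6384 to 7472 bp in mock and 6828 to 7470 bp in RNaseH1 libraries. Neighbouring summits within 1500 bp numbered 4, 3 and 1 in the mock windows and 11, 13 and 11 in the RNaseH1 windows. In the treated lists these include pairs of peaks within 1 region, described below. At 5 regions split in every RNaseH1 list, such summits were 676 to 1206 bp apart. As a share of neighbouring pairs this was 10.8%, 8.11% and 2.78% against 26.2%, 31.7% and 26.8%. In the whole lists the share overlapped between the groups, at 13.04% to 15.2% in mock and 14.4% to 15.3% in RNaseH1 libraries. With the same −log10 q threshold, the difference in median spacing shrank from −1158 to −72.7 bp (exact p = 0.8). The longest peak-free stretch of each window was present in every list. The distance between the summits that flank it was 157492 to 157546 bp in mock and 157446 to 157825 bp in RNaseH1 libraries in window 1. In window 2 it was 62135 to 62337 bp in mock and 61359 to 61720 bp in RNaseH1 libraries, a difference of −1.12% in the mean.

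Summit coverage was lower in the nuclease-treated windows. Its median over the window peaks was 17.3, 18.4 and 17.8 times background in mock and 10.2, 9.33 and 8.93 in RNaseH1 libraries (exact permutation p = 0.1, n = 3). The mean of these medians differed by −46.8% with no overlap, whereas over the whole lists the medians overlapped (7.99 to 8.45 in mock, 7.59 to 8.29 in RNaseH1 libraries). Peaks of 10 times background or more made up 89.7%, 89.7% and 89.5% of the window peaks in mock and 50%, 39.5% and 32.6% in RNaseH1 libraries. In the whole lists this share was 33.9% to 35.4% in mock and 23.7% to 28.9% in RNaseH1 libraries. Of peaks at 20 times background or more, the mock windows had 13, 12 and 13 and the RNaseH1 windows 0, 1 and 1. Window 2 held the higher peaks in both groups: its highest summit was 31.1, 37.2 and 31.0 times background in mock and 19.5, 20.2 and 22.3 in RNaseH1 libraries, against 26.6, 23.7 and 23.0 and then 15.2, 17.6 and 17.4 in window 1. These medians run over whichever peaks were called in each list, so the same sites were next compared one by one.

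**Figure D2:**
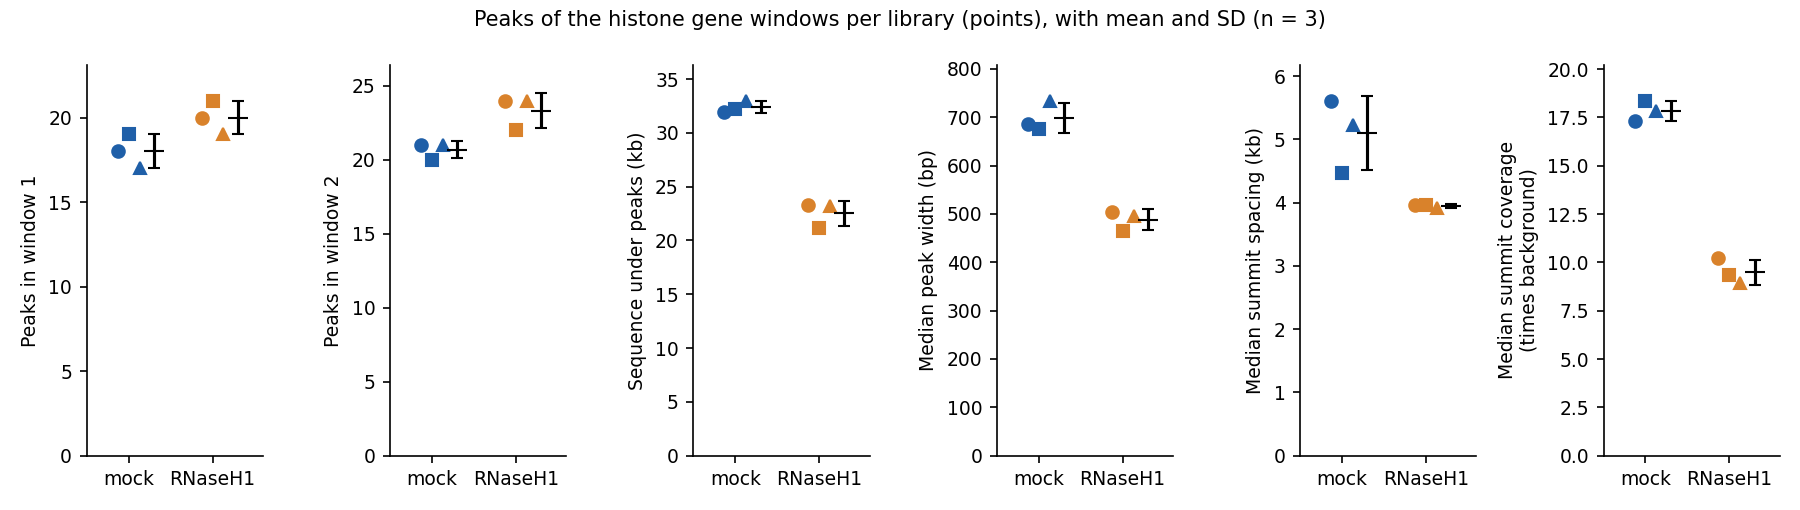
Peak number in each window, and sequence under peaks (kb), median peak width (bp), median summit spacing (kb) and median summit coverage (times background) over both windows, 1 point per library, with the group mean and SD (n = 3) as the black mark beside them. Mock libraries are blue and RNaseH1 libraries orange; the groups overlap in the number of peaks in window 1 and are separate in the other 5 panels.

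For the comparison by site, overlapping or adjoining peaks from the 6 lists were joined into regions, named A1 to A18 in window 1 and B1 to B21 in window 2 in chromosome order. The windows held 39 of the 137027 regions of the genome. TET1 was found at them with high regularity: 33 of 39 (84.6%) had a peak in all 6 lists, 15 in window 1 and 18 in window 2, against 21.6% of all regions. A single region of the 39 (2.56%) came from 1 list only, against 34.0% of all regions. Of the 36 window regions with a peak in all 3 mock lists, 33 (91.7%) had one in all 3 RNaseH1 lists too, where the genome had 61.3% of 48273. Window peaks were higher than those of the whole lists, as given above, and these genome shares were not matched for peak height.

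The 6 regions absent from some list had lower mean mock coverage than any of the 33. A14 (chr13:22120722-22121165) was the one region found in all mock lists and in no RNaseH1 list; the genome had 6.67% such regions among those in all mock lists. Its mock coverage was 5.33, 9.86 and 7.98 times background. A13 (chr13:22100172-22100499) had peaks of 6.66 and 7.17 times background in mock libraries 1 and 2 alone. A16 (chr13:22131227-22131579) had 1 peak, of 4.22 times background in mock library 3. All 3 lie in window 1 and were missing from every RNaseH1 list. In window 2, B13 (chr13:23787585-23788406) had 4.88 and 5.63 in mock libraries 1 and 3 and 5.81 in RNaseH1 library 3. B14 (chr13:23802023-23802785) had 7.99, 7.62 and 7.98 in mock and 6.18 and 7.78 in RNaseH1 libraries 1 and 2. B18 (chr13:23843993-23844825) was higher, at 11.5, 13.4 and 13.6 in mock, and had 8.08 in RNaseH1 library 1 alone. No window region was found in all RNaseH1 lists and no mock list, against 1.68% of the genome's regions in all RNaseH1 lists. A13, A16, B13, B14 and B18 were picked out for description after their values were seen.

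At the 33 regions present in every list, coverage was tested with limma on log2 of coverage over background, fitted over all 29613 such regions of the genome. Of the 33, 31 were lower in RNaseH1 libraries at an adjusted p under 0.05 and none was higher; genome-wide, 36.0% were lower and 0.206% higher. By window these were 13 of 15 and all 18 of 18. The median log2 difference over the 33 regions was −0.83, a fold of 0.561, against −0.35 (0.785) over all regions. In 32 of 33 regions every RNaseH1 library lay below every mock library, against 44.7% of all regions, and in none did every RNaseH1 library lie above, against 1.39%. Mock coverage at these sites was high to begin with, with library medians of 18.2, 19.3 and 18.3 against 12.87, 12.99 and 12.67 over all regions. The RNaseH1 medians were nearly level with the genome, at 10.9, 10.4 and 9.38 against 9.98, 10.4 and 9.83. Among regions of 10 times background or more on average over the 6 libraries, 57.7% of 18725 were lower and 0.0427% higher; of the members, the same 31 of 33 were lower and none was higher.

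The fall at these sites was therefore read against the shift of all regions. With each library centred on its median over all regions, 11 of 33 members were lower and none higher (limma, adjusted p under 0.05), against 4.63% lower and 1.67% higher in the genome. All 11 belong to the 31. They were A6, A9, A15 and A17 in window 1 and B3, B4, B6, B10, B12, B16 and B19 in window 2, with log2 differences from −0.65 to −1.12 after centring. B3, B4 and B19, like A2, A4 and B7 below, were named after their values were seen. Centring used all regions, whereas the members had high mock coverage. Before centring, the median log2 difference was −0.49 over regions averaging 10 times background or more and −0.35 over all regions. No centred share was computed for such high regions alone. Which scale reflects TET1 per cell is not fixed by the lists, since no spiked-in reference was named in the labels.

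**Figure D3:**
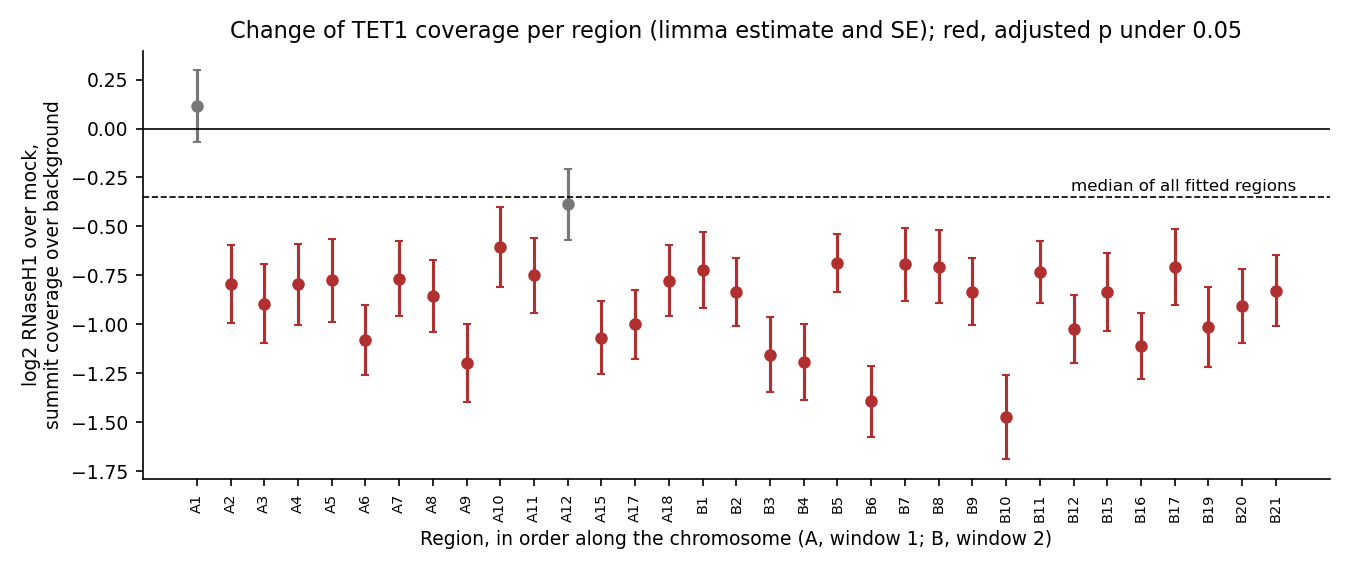
Difference in log2 summit coverage over background, RNaseH1 minus mock (limma estimate, bars 1 SE), for the 33 regions with a peak in all 6 lists, in chromosome order. Red points are lower at an adjusted p under 0.05 (31 of 33), grey points are A1 and A12, and the dashed line is the median of all 29613 regions (−0.35).

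The highest site of the windows was B5 (chr13:23646825-23647807), with 31.1, 37.2 and 31.0 times background in mock and 19.0, 20.2 and 22.3 in RNaseH1 libraries. Next came B11 (chr13:23713637-23714551), with 30.2, 29.1 and 27.7 against 19.5, 14.5 and 18.8. Both were lower in every treated library, by log2 −0.69 (SE 0.15; limma, adjusted p = 0.00065) and −0.73 (SE 0.16; limma, adjusted p = 0.00059). They were nonetheless the highest pair of members in every list save RNaseH1 library 2, where A1, A7 and A18 stood above B11. After median centring neither was called (limma, adjusted p = 0.17 and 0.14).

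B6 (chr13:23662404-23663918) had 24.9, 27.8 and 20.6 times background in mock and 9.98, 10.4 and 7.59 in RNaseH1 libraries. That is a fold of 0.381 (log2 −1.39, SE 0.18; limma, adjusted p = 2.6e-06). B10 (chr13:23677175-23677893) differed most of all members: 21.3, 19.3 and 27.2 in mock against 12.4, 7.26 and 5.81 in RNaseH1 libraries. Its fold was 0.360 (log2 −1.47, SE 0.22; limma, adjusted p = 1.1e-05), and its treated libraries spread by more than those of B6. Both sites lie in the same stretch of window 2 as B5.

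B16 (chr13:23837767-23839301) went from 22.2, 22.0 and 25.3 to 10.5, 11.4 and 10.3 times background (log2 −1.11, SE 0.17; limma, adjusted p = 1.8e-05). B12 (chr13:23775210-23776679), which stands apart from the other members found in every list, went from 20.0, 21.5 and 25.8 to 9.98, 11.4 and 11.6 (log2 −1.02, SE 0.17; limma, adjusted p = 5.6e-05). Groups did not overlap at either site.

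In window 1 the highest mock coverage was at A6 (chr13:21841914-21842519), with 26.6, 23.7 and 17.8 against 10.5, 9.85 and 11.6 times background. A17 (chr13:22132648-22133353) had 23.1, 19.3 and 23.0 against 10.9, 9.33 and 12.5. Both fell, with log2 differences of −1.079 (SE 0.18) and −1.001 (SE 0.18; limma, adjusted p = 4.8e-05 and 8.5e-05). A18 (chr13:22134168-22135657) had 22.6, 22.0 and 18.3 against 9.98, 15.6 and 11.6, and A7 (chr13:21871621-21872595) 21.3, 22.8 and 17.4 against 12.4, 15.6 and 8.93. At these last sites RNaseH1 library 2 was the highest of the treated libraries, and the log2 differences were −0.78 and −0.77 (limma, adjusted p = 0.0013 and 0.0022). A15 (chr13:22126812-22128340) went from 20.4, 17.0 and 18.8 to 9.98, 9.33 and 7.59, and A8 (chr13:21874635-21875357) from 16.4, 19.3 and 17.8 to 11.4, 9.33 and 8.93. Their log2 differences were −1.07 and −0.86 (limma, adjusted p = 7.4e-05 and 0.00057). A9 (chr13:21878496-21879886) had the largest fall of window 1, from 16.0, 15.2 and 21.6 to 9.03, 6.74 and 7.15 (log2 −1.20, SE 0.20; limma, adjusted p = 4.8e-05).

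At 3 sites the change was smallest. A1 (chr13:21779202-21780522), which straddles the left edge of window 1, had 14.2, 12.5 and 20.6 times background in mock and 15.2, 17.6 and 17.4 in RNaseH1 libraries. Here the groups overlapped and the log2 difference was 0.11 (SE 0.18, 95% interval −0.26 to 0.49; limma, adjusted p = 0.67). Without mock library 2 its sign turned (−0.035), and after median centring it was 0.47 (limma, adjusted p = 0.12). A12 (chr13:22097755-22099249) had 16.0, 17.9 and 14.1 against 12.4, 10.9 and 13.4, which do not overlap but gave a log2 difference of −0.39 that missed the threshold (95% interval −0.75 to −0.02; limma, adjusted p = 0.091). A10 (chr13:22036598-22037655), the first site after the long peak-free stretch of window 1, had 17.8, 11.6 and 13.6 against 10.9, 7.78 and 9.38. It was called at log2 −0.61 (limma, adjusted p = 0.019), a call lost without mock library 1 (adjusted p = 0.15) or RNaseH1 library 2 (adjusted p = 0.11). The other 17 fitted regions were all called, with log2 differences from −0.69 at B7 to −1.19 at B4.

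Where every list had a single peak, summits mostly stayed in place. At 22 regions with a single peak in each of the 6 lists, the mean summit position of the groups differed by a median of 36.3 bp, with a range from 1.67 to 156 bp. In the other regions found in every list, the mean position of the highest summit moved least at B6 (7 bp) and most at A2 (−523 bp). Bases under peaks were fewer in every RNaseH1 library than in any mock library at 21 of 33 regions, against 30.7% of all regions, and more at none, against 1.58%.

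Some broad mock peaks were called as separate narrower peaks in the treated lists. At 5 of 33 regions, every RNaseH1 list had more peaks than any mock list; the genome had 1.05% such regions. Of the 10 member regions with a single peak of 1000 bp or wider in each mock list, 5 had 2 peaks in every RNaseH1 list, against 4.49% of 5503 such regions in the genome. They were A15, A18, B6, B12 and B20, the last at chr13:23852499-23854318. B20 was singled out after its values were seen. Mock peaks at these sites were 1331 to 1794 bp wide (median 1454 bp over 15 peaks). The 30 RNaseH1 peaks were 269 to 797 bp wide (median 473.5 bp), with gaps of 250 to 699 bp (median 323 bp) and summits 676 to 1206 bp apart (median 925 bp).

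B6 shows the form most clearly. Its mock peaks were 1331, 1462 and 1466 bp wide. The treated lists had a left peak of 490, 417 and 452 bp and a right peak of 480, 562 and 519 bp, with 312, 331 and 250 bp between them. The left and right summits were 9.03 and 9.98 times background in RNaseH1 library 1, 6.22 and 10.4 in library 2, and 7.15 and 7.59 in library 3, all below the lowest mock summit of 20.6. All mock summits of B6 lay on the side of the right peak. At A15 and B20 the mock summits fell on different sides in different libraries.

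At B20 the mock peaks spanned 1776, 1763 and 1794 bp with summits of 26.6, 20.2 and 20.2 times background. The RNaseH1 summits were 12.4 and 16.2 in library 1, 10.4 and 7.78 in library 2, and 8.49 and 9.83 in library 3. No flank reached the lowest mock summit. The log2 difference of its higher summit was −0.91 (SE 0.19; limma, adjusted p = 0.00047). A2, A4, B7 and B16 had 1 peak in each mock list and a pair of peaks in some but not all RNaseH1 lists.

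**Figure D4:**
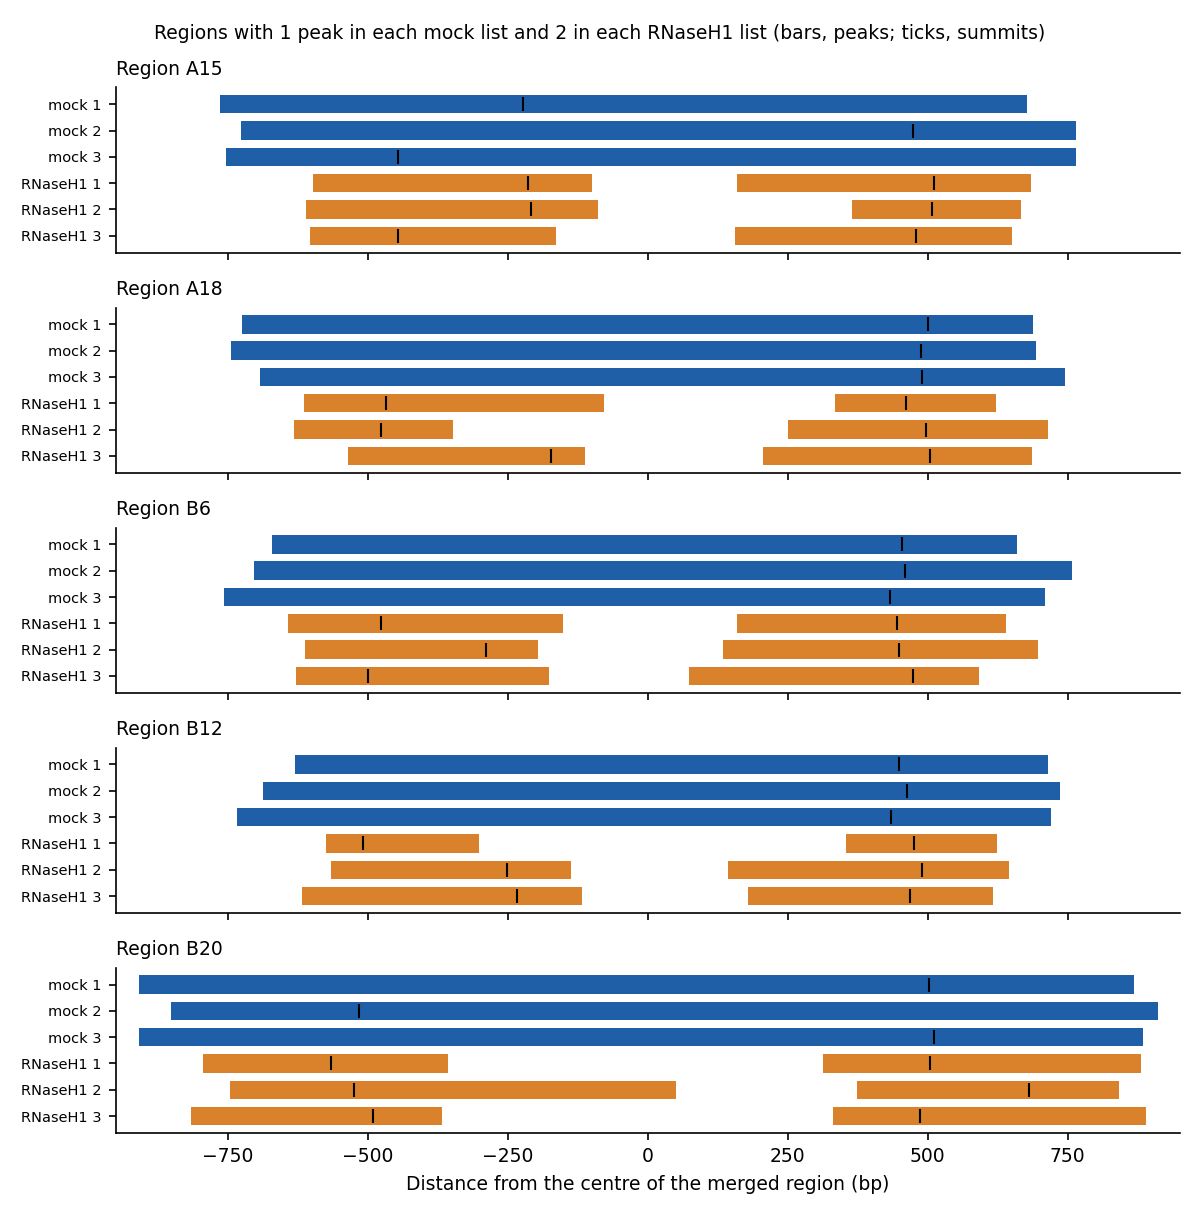
Peaks (bars) and summits (ticks) of each library at A15, A18, B6, B12 and B20, by distance from the centre of the merged region in bp. Each mock list (blue) has 1 broad peak and each RNaseH1 list (orange) a pair of narrower peaks with a gap of 250 to 699 bp between them.

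The background that the authors' peak caller used beside each peak also moved, and its part in peak calls was not tested. Where it is above the genome-wide background, it reads the input. There was 1 input per condition, so the 3 libraries of a group are not independent here and no test is given. At the 33 regions the median local background was 1.03, 1.05 and 1.04 times the genome-wide background in mock and 1.305, 1.261 and 1.136 in RNaseH1 libraries. Over all regions it was higher in both groups, at 1.25 to 1.27 and 1.55 to 1.58. It was above every mock value in every RNaseH1 library at 17 of 33 regions (57.8% of all regions) and below at 10 of 33 (7.52% of all regions). At B11 it was 1.254, 1.301 and 1.04 in mock and 2.55, 2.08 and 2.41 in RNaseH1 libraries. At B6 and B10 it went the other way, from 1.095, 1.101 and 1.125 to 1.00 in each at B6, and from 1.09, 1.06 and 1.02 to 1.01 in each at B10. Those are the sites with the largest falls in coverage. A local background of 1.00 is the genome-wide value itself, the most frequent one in each list, rather than a local reading. The input does not enter the coverage values given above. With the authors' fold, into which it does, the same 31 of 33 regions were lower, against 55.4% of all regions.

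**Figure D5:**
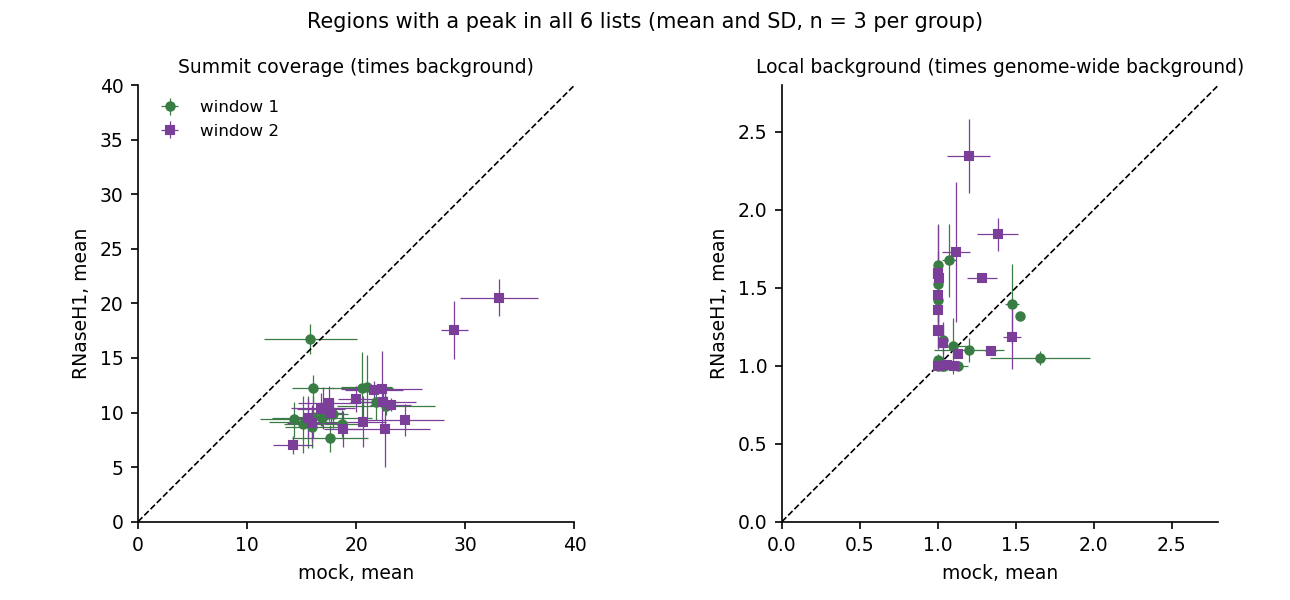
Mean summit coverage (left, times genome-wide background) and mean local background (right, times genome-wide background) of the 33 regions, RNaseH1 (vertical axis) against mock (horizontal axis), with SD (n = 3 libraries per group; local backgrounds of a group share 1 input). Green circles are window 1 and purple squares window 2; coverage points lie below the dashed line of equality save 1 (A1), while local backgrounds lie on both sides of it.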

How the data were processed

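Per the submitters' processing notes, the authors used MACS2 2.1.1, Bowtie2 2.2.8, deepTools 2.4.3, Picard, bedtools 2.25.0 and SAMtools 1.3.1 with the build mm9 (NCBIM37), with settings not given in the sources used here. Every one of the 6 ChIP libraries has a deposited peak list, called by library against the input of its condition, as the peak names in the files show. Per peak the authors deposited a score, a fold (ratio of coverage to local background at the summit), −log10 p and −log10 q values and the summit offset. Input libraries were not analysed here.

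Summit coverage and local background were recovered by finding the whole number of fragments, up to 1500, for which the fold (with MACS2's pseudocount of 1) and the Poisson −log10 p both hold within 0.001. This succeeded for 99.9986% or more of the peaks of each list and for 100% of 3000 simulated peaks. The most frequent local background served as the genome-wide one. Groups came from the sample titles. Per-library measures were compared by the exact two-sided permutation test of 20 label orders. Regions with a peak in all 6 lists (the highest summit per library) were fitted with limma 3.58.1 (trend) in R 4.3.3, with Benjamini-Hochberg adjustment over 29613 regions. In simulated data of that size, limma called 43 of 100 regions changed by log2 1, 94 of 100 changed by log2 2, and 3 unchanged ones. Unlike the data, the simulation changed these few regions alone and had no shift of all regions. No pair of lists shared more than 4 identical peaks.

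Regions named are, in each window, the 6 of highest mean mock coverage, those of 1 group only, and over both windows the 3 largest and 3 smallest decreases; exceptions are marked. The members and lists were chosen with earlier results of these data known. Tables were handled in Python 3.11.15 with pandas 2.3.3, numpy 2.4.6 and scipy 1.17.1. Alternatives covered a stricter q, equal list length, wider windows, overlap, merging distance, a pseudocount, a coverage filter, median centring, the authors' fold, limma without trend, the replicate block and leaving out each library.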

Additional observations from a re-analysis of the deposited data

How the results depend on the processing

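Of 299 recomputed values, 284 kept their direction and their side of the threshold, or stayed close to the value reported. Much of this was fixed beforehand. The replicate block and the fit without trend leave the log2 difference of a region as it is, and no measure per library could pass 0.05. The 284 also include the median spacing with the stricter q, where the difference shrank from −1158 to −72.7 bp (exact permutation p = 0.8). With peaks at or above a −log10 q of 6.59 alone, the difference in peak number turned to −2 in window 1 and −2.33 in window 2. Then 20 regions had a peak in all 6 lists, and 19 of these 20 were lower, against 60.6% of 12247 in the genome. With median centring, 11 of 33 were lower, against 4.63% of all regions. A18, A7, A8, B5, B11 and A10 were among those no longer called. A12 was called with the stricter q (limma, adjusted p = 0.048). Fewer peaks entered under the stricter q, and the cause of these changes was not tested. Leaving out each library in turn gave differences of 1.5 to 2.5 peaks in window 1, 2.33 to 3.33 peaks in window 2, −9175 to −10205 bp under peaks, −193 to −222 bp in median width, −903 to −1473 bp in median spacing and −8.06 to −8.71 times background in median summit coverage. In these fits 30 to 31 window regions were lower, against 27.3% to 32.7% of all regions. The log2 difference of A1 ranged from −0.035, without mock replicate 2, to 0.32 without mock replicate 3, and was 0.47 with median centring.

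Libraries of the same replicate number showed no sign of pairing. Their deviations from the group means correlated at 0.0134, −0.00489 and 0.0379 over 29613 regions, against −0.0417 to 0.0333 for libraries of different number. Such small values cannot show that the libraries were unpaired. With the replicate block, 31 of 33 regions were lower, the same ones, against 36.3% of all regions. Summits of 13 to 83 fragments limit what any single region can show, and 43 of 100 simulated regions changed by log2 1 were called. Few regions were changed in that simulation, whereas 36.0% were lower in the data, so its share does not carry over to the fit reported here. Extending the windows by 50 kb added no region found in all 6 lists.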
